A study of Mus musculus with 8 samples.

Results

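MERVL and its relatives of the ERVL group were followed here across mouse embryonic stem cells that differ in DNA methyltransferases, DAXX and culture medium. The elements were taken from a deposited table of long repeats by family name alone, as those whose name begins with MERVL or ERVL and which do not lie on a random scaffold. This gave 599 of 17857 elements, made up of 582 MERVL-int, 16 MERVL_2A-int and 1 ERVL-B4-int, and no measured value took part in the choice. A further 6 MERVL-int elements on random scaffolds had 0 reads and were left out.

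MERVL is an endogenous retrovirus of the mouse whose internal part, named MERVL-int in repeat annotations, codes for retroviral proteins and lies between a pair of long terminal repeats. It is known for a burst of transcription in the early cleavage embryo, and in embryonic stem cell cultures for transcription in a small, changing fraction of cells that resemble that stage. DAXX is a histone chaperone that works with ATRX to deposit the histone variant H3.3 at heterochromatin, including at some endogenous retroviruses. DNA methylation is another known means by which retroviral repeats are kept silent.

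The study grew 4 lines in each of 2 media, giving 8 groups of 1 library. J1 is a wild-type embryonic stem cell line, and TKO lacks 3 DNA methyltransferases. Each was used with DAXX intact and with DAXX knocked out. The groups were therefore J1 and its DAXX-knockout line, and TKO and its DAXX-knockout line, in regular medium and after 72 hours of ground state medium. That medium held vitamin C at 100 µg/ml, PD0325901 at 1 µM, which inhibits MEK, and CHIR99021 at 3 µM, which inhibits GSK3b. It is called 2i below, and the libraries are named by line and medium. Where 4 values are given for a medium with no other order named, J1 comes first, then J1 DAXX-knockout, then TKO, and TKO DAXX-knockout last. The genotype tag of the J1 DAXX-knockout libraries reads wild type while their titles name the knockout, and they were grouped by title. The number of clones behind each knockout line was not given by the labels. The libraries hold cytoplasmic RNA captured by its poly(A) tail, so nuclear and non-polyadenylated transcripts were largely out of reach.

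The libraries held 67.4 to 99.1 M reads, of which the listed repeats took up 8.28% to 19.3%, with the highest share in TKO regular. Family levels are given in RPM, the reads for each 1 M of that total. A floor of 3 reads lay at 0.0303 to 0.0445 RPM, and this floor and the intervals below cover counting error only. The knocked-out genes and the markers of embryonic stem cells, 2-cell-like cells and feeder fibroblasts were not examined, since the transcripts in the files carry no gene names, so genotype and cell type were taken from the labels. In bulk RNA, fewer expressing cells and less RNA per expressing cell cannot be told apart. No group had a replicate, so the p-values of the fits below rest on the residual over the 8 libraries. Each family or element has 4 residual degrees of freedom, or 3 where an interaction was fitted. The fits also borrow from the spread over all tested families or elements, so their p-values do not rest on those degrees of freedom alone. That residual holds interactions as well as noise. The pairs of libraries compared come from 4 lines and are not independent, and no p-value here measures how lines of 1 genotype vary.

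MERVL-int was abundant in regular medium in 3 of the lines and much lower elsewhere. It had 9185 RPM in J1 regular, 6417 in J1 DAXX-knockout regular and 14387 in TKO regular, the 3 highest libraries. In TKO DAXX-knockout regular it had 1634 RPM, below 3 of the 4 libraries grown in 2i. In 2i the 4 lines had 902, 1842, 2722 and 1761 RPM. The smallest family count behind these values was 60790 reads in J1 2i, where the exact Poisson interval ran from 895 to 909 RPM, so counting error was small beside the gaps between neighbours in this order. Whether neighbouring libraries differ beyond the spread between cultures cannot be read from single libraries.

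MERVL_2A-int, a related internal sequence under a separate name, followed the same order at a lower level. Over the 4 lines it had 118, 77.7, 178 and 20.5 RPM in regular medium, and 11.5, 23.9, 36.5 and 23.5 in 2i. Its order of the 8 libraries was that of MERVL-int, with TKO regular highest and J1 2i lowest. The exact Poisson intervals of J1 DAXX-knockout 2i (22.9 to 24.9 RPM) and TKO DAXX-knockout 2i (22.4 to 24.6) overlap. The order of that pair is therefore not resolved even for counting error.

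ERVL-B4-int is a single element on chromosome 12, at 12866727 to 12871915 in mm9. Over the 4 lines it had 14.1, 9.63, 23.5 and 2.87 RPM in regular medium, and 1.60, 2.45, 3.93 and 2.24 in 2i. The lowest value rests on 108 reads, with an exact Poisson interval of 1.31 to 1.94 RPM, and the next, TKO DAXX-knockout 2i, on 171 reads, with one of 1.92 to 2.61. These 2 intervals overlap slightly, so J1 2i is not clearly the lowest. The intervals of both DAXX-knockout lines in 2i and of TKO DAXX-knockout regular overlap, so the order of those 3 is not resolved even for counting error.

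**Figure D1:**
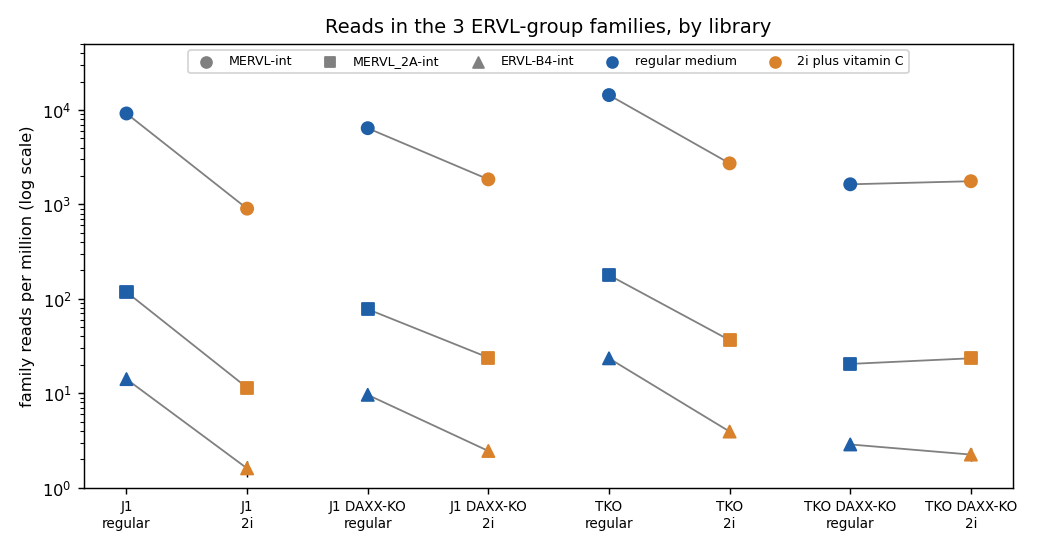
RPM of MERVL-int (circles), MERVL_2A-int (squares) and ERVL-B4-int (triangles) in each library on a log axis, blue for regular medium and orange for 2i plus vitamin C, with lines joining the media of a line and bars for the exact Poisson interval where it is larger than the symbol. MERVL-int drops from 9185 to 902 RPM in J1 and stays near 1634 and 1761 RPM in TKO DAXX-knockout.

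The ERVL elements also changed their standing among the repeats. They held 26.8% of all reads in listed long terminal repeat elements in J1 regular, 15.4% in J1 DAXX-knockout regular and 33.2% in TKO regular. Their share was 3.42% for TKO DAXX-knockout regular and, for the 4 lines in 2i, 3.93%, 3.08%, 6.27% and 4.25%. The Wilson half-width of these shares was at most 0.0530 percentage points. The shares also move with the other long terminal repeat families. MERVL-int had 902 RPM in J1 2i and 1842 in J1 DAXX-knockout 2i, although the share was lower in the latter. IAPEz-int, another long terminal repeat family, had 3029 and 31233 RPM in those 2 libraries. Set against L1Md_T, an abundant LINE1 family, there were 0.241 MERVL-int reads for each L1Md_T read in J1 regular and 0.0248 in J1 2i. The ratio was 0.157 and 0.0307 in J1 DAXX-knockout regular and 2i, and 0.171 and 0.0522 in TKO. In TKO DAXX-knockout it was 0.0415 (regular) and 0.0758 (2i), the only line in which this ratio was higher in 2i.

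The comparison of 2i with regular medium asks how the repeats differ between the ground state and the ordinary state of culture. MERVL-int was lower in 2i in 3 of 4 lines. The 2i level was 0.0982, 0.287, 0.189 and 1.08 of the regular level in the 4 lines, so only TKO DAXX-knockout had no lower level in 2i. The log2 ratios averaged −1.86 ± 1.46 (SD of 4 pairs) and were above 0 in 1 of 4. Those of MERVL_2A-int averaged −1.79 ± 1.49, also above 0 in 1 of 4. Those of ERVL-B4-int averaged −2.01 ± 1.20 and were above 0 in 0 of 4, with a ratio of 0.781 in TKO DAXX-knockout.

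In edgeR's quasi-likelihood test of family sums with Benjamini-Hochberg adjustment over 44 families, all 3 members fell in 2i, while 11.4% of tested families were called lower and 4.55% higher. The 3 members are themselves among the 5 families behind that 11.4%. The fitted log2 change of MERVL-int was −1.96 (SE 0.57), or 0.257 of the regular level, with an adjusted p of 0.0359. That of MERVL_2A-int was −1.88 (SE 0.59) with an adjusted p of 0.0490, and that of ERVL-B4-int was −2.11 (SE 0.54) with an adjusted p of 0.0184. Of the 15 tested families of long terminal repeat elements outside the ERVL group, 2 were called lower and 2 higher. Beside them, the fitted log2 change was 1.03 for IAPEz-int (adjusted p 0.231), the internal part of intracisternal A-particles, and −1.85 for MMERVK10C-int (adjusted p 0.00992), an ERVK family. The median over the 44 families was −0.21. The call of MERVL-int was lost under all 8 other settings of scale, tool and minimum level, with log2 changes of −1.96 to −1.66 and adjusted p of 0.0563 to 0.255, and held without 4 of the 8 libraries. With the 4 lines as a block, an alternative chosen after seeing the data, its change was −1.90 with an adjusted p of 0.0610, that of MERVL_2A-int −1.82 with 0.0640 and that of ERVL-B4-int −2.04 with 0.0193, so only the last kept its call. The call of MERVL-int was lost without J1 2i (log2 change −1.39) or TKO regular (−1.50), and also without TKO 2i (−2.04) or J1 DAXX-knockout regular (−1.73). The call of MERVL_2A-int was lost without the same 4 libraries, with changes of −1.28 to −1.96, and that of ERVL-B4-int without TKO 2i (−2.17) or J1 DAXX-knockout regular (−1.88), and both were lost under the 3 other scalings.

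Single elements gave the same direction for the medium. Of the 582 MERVL-int elements, 575 reached the mean of 0.1 RPKM (RPM for each kilobase of an element) needed for testing, and 448 of these, 77.9%, were called lower in edgeR and 0 higher. Over all 11332 tested elements, 4.72% were called lower and 0.494% higher. The 448 MERVL-int elements are themselves among the 535 elements behind that 4.72%. The median log2 change was −2.04 over the tested MERVL-int elements and −0.25 over all tested elements. All 575 had a fitted change below 0, from −2.38 to −0.71. Of MERVL_2A-int, 11 of 13 tested elements were called lower, and ERVL-B4-int was called too. Among 1110 tested long terminal repeat elements outside the ERVL group, 70 were called lower and 50 higher, and their median was 0.98. Of the 70, 64 were MMERVK10C-int elements. These were 84.2% of the 76 tested in that family, whose median was −1.87. A called fall of most copies was therefore not particular to the ERVL group. Among 9632 LINE elements, 10 were called in either direction.

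The count of called MERVL-int elements depended on the scaling and on single libraries. It was 0 with TMM or with LINE reads as the scale, and 1 with median-of-ratios size factors, while the median log2 change of the family stayed at −1.73 to −1.77 under these scalings and 534 to 552 elements had an unadjusted p under 0.05. The same scalings moved the median over all elements from −0.25 to between −0.015 and 0.029. They also turned the split of all called elements from 56 higher and 535 lower to 62 and 8 with TMM, 630 and 68 with size factors, and 575 and 66 with LINE reads. The MERVL-int count was 24 without J1 regular and 0 without any 1 of these: J1 2i, TKO regular, J1 DAXX-knockout regular and TKO 2i. It was between 387 and 548 with DESeq2, limma or another minimum level.

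In most pairs of libraries nearly all MERVL-int elements moved in the same direction. The elements were split between the media of TKO DAXX-knockout. They were also split between TKO and J1 in DAXX-knockout 2i, with 197 higher and 385 lower in TKO. All 582 were counted here, with 0.5 added to each read count. From regular medium to 2i, 581, 582 and 579 were lower in the first 3 lines and 194 in TKO DAXX-knockout. The median element changed by log2 −3.51, −1.84, −2.46 and 0.10 in those lines. Over all tested elements, 69.0%, 19.8%, 89.1% and 89.3% were lower, with medians of −0.19, 0.34, −0.55 and −0.76. TKO DAXX-knockout was thus the line in which most repeats were lower in 2i and most MERVL-int elements were not.

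**Figure D2:**
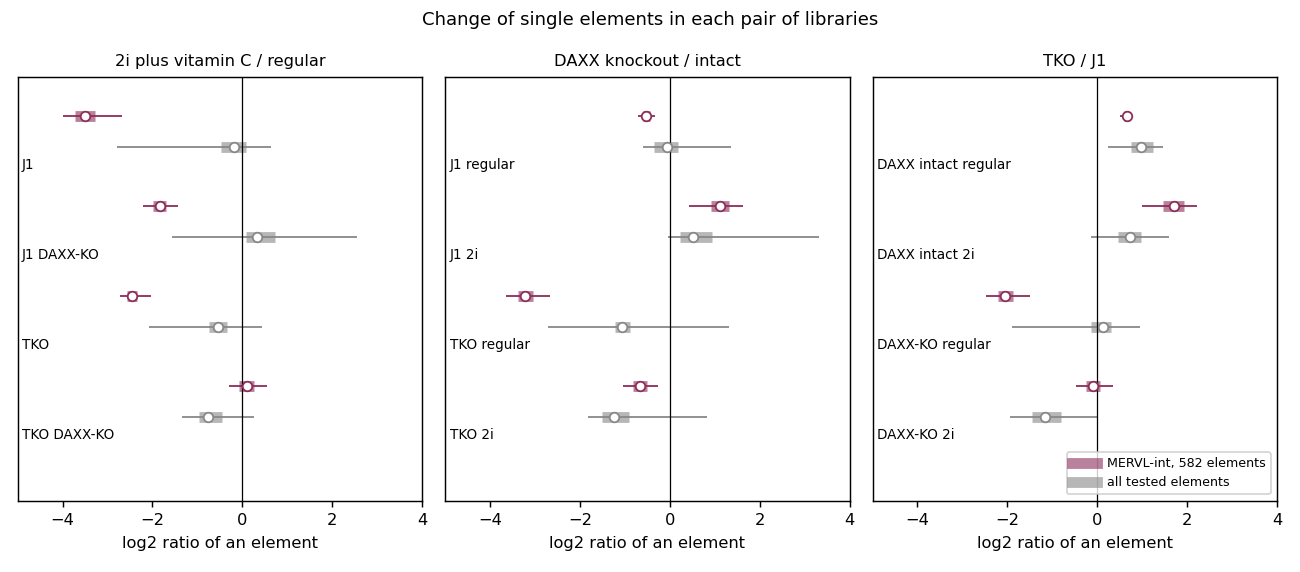
Log2 ratio of single elements in each pair of libraries, for 582 MERVL-int elements (purple) and all tested elements (grey); circles are medians, thick bars run from the first to the third quartile and thin lines from the 5th to the 95th percentile. MERVL-int medians run from −3.51 for 2i in J1 to 0.10 in TKO DAXX-knockout, and for DAXX knockout from −3.23 in TKO regular to 1.12 in J1 2i.

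Whether the medium effect depended on DAXX or on the methyltransferases was tested with interaction terms. The log2 difference of the MERVL-int medium effect between DAXX-knockout and DAXX-intact lines was 1.53 (SE 0.85; edgeR, adjusted p = 0.967), where 0% of the 44 families were called and 0 had an unadjusted p under 0.05. The difference between TKO and J1 was 0.73 with an adjusted p of 0.827, again with 0% of families called and 0 at an unadjusted p under 0.05. It was 1.70 with TMM, 1.64 with size factors and 1.98 with LINE reads, with adjusted p of 0.857, 0.711 and 0.757. Neither interaction called any of the 11332 elements (0%), although the median of the DAXX interaction was 1.55 over MERVL-int elements and 0.36 over all. DESeq2, limma and the other scalings also called 0 MERVL-int elements for either interaction. At an unadjusted p under 0.05, edgeR had 0 of 575 for either, DESeq2 and limma at most 31. For the methyltransferase interaction TMM had 17, size factors 151 and LINE reads 99, beside 602, 654 and 607 of all elements. The smaller medium effect with DAXX knocked out therefore did not pass a test of that difference.

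Lines without DAXX were set against lines with it to see which repeats change when the chaperone is lost. MERVL-int had no common direction. The knockout level was 0.699 of the intact level in J1 regular, 2.04 in J1 2i, 0.114 in TKO regular and 0.647 in TKO 2i. The log2 ratios averaged −0.81 ± 1.72 (SD of 4 pairs), above 0 in 1 of 4, so the spread between pairs exceeded the mean. The log2 ratios of MERVL_2A-int averaged −0.83 ± 1.72 and those of ERVL-B4-int −0.94 ± 1.52, each above 0 in 1 of 4. In edgeR the fitted changes were −0.73 for MERVL-int, −0.75 for MERVL_2A-int and −0.88 for ERVL-B4-int, all with adjusted p = 0.646, and 0% of families were called, with 3 at an unadjusted p under 0.05. IAPEz-int, in the same test, had a fitted change of 1.84 with an adjusted p of 0.0576.

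No MERVL-int element was called for DAXX in edgeR, with 4 of 575 at an unadjusted p under 0.05, and 0 were called by DESeq2 or limma. At that unadjusted level DESeq2 had 11, limma 39 with a pseudocount of 0.1 and 128 with 1. Of all 11332 elements these had 1169, 1009 and 1111. With TMM, size factors and LINE reads, 0 MERVL-int elements reached it. Of all tested elements edgeR called 6.71% higher and 0.0618% lower. The median change was −0.74 over MERVL-int elements, −0.44 over all elements and 1.84 over long terminal repeat elements outside the ERVL group, of which 760 of 1110 were called higher. With TMM, size factors and LINE reads the median over MERVL-int elements was −0.19 each, and that over all elements was between −0.002 and 0.007. Without J1 DAXX-knockout 2i edgeR called 43 MERVL-int elements, 7.48%, all lower, beside 3453 of all 11332 elements lower and 820 higher. It called 0 MERVL-int elements without any other single library.

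Within TKO, MERVL-int was lower in the DAXX-knockout line in both media, and much more so in regular medium. In regular medium the median MERVL-int element changed by log2 −3.23, beside −1.07 over all tested elements. In 2i these medians were −0.67 and −1.24, so there MERVL-int fell less than the median repeat. The fitted log2 change of MERVL-int was −1.58 (SE 0.75), or 0.334 of the intact level (edgeR, adjusted p = 0.117), where 2.27% of families were called. That of MERVL_2A-int was −1.57 with an adjusted p of 0.117, and that of ERVL-B4-int was −1.74 with an adjusted p of 0.0747. None of the 3 families was called. Without TKO DAXX-knockout 2i the change of MERVL-int was −3.20 with an adjusted p of 0.000233, and without TKO DAXX-knockout regular it was −0.57. With LINE reads as the scale it was −0.20.

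At the level of elements, 463 of 575 tested MERVL-int elements, 80.5%, were called lower for DAXX loss in TKO. This stands beside 56.3% of all tested elements called lower and 3.42% called higher, so most repeats shared that direction. The median was −1.64 over MERVL-int elements and −1.18 over all. Of MERVL_2A-int, 11 of 13 tested elements were called, and ERVL-B4-int was called with an adjusted p of 0.0433. With TMM, size factors or LINE reads as the scale, 0 MERVL-int elements were called, with 0 at an unadjusted p under 0.05, and their median was −0.27 to −0.30. The median over all elements moved to between −0.033 and −0.013. The split of all called elements turned from 387 higher and 6384 lower to 805 and 12, 925 and 13, and 923 and 11. With no minimum level the count was 71 of 581, 12.2%, beside 1493 lower and 62 higher of 16046 elements. With a 10 times higher minimum it was 0 of 548, beside 2 of 6537 elements called, with 524 MERVL-int elements at an unadjusted p under 0.05. The count was also 0 without TKO regular, TKO 2i or TKO DAXX-knockout regular, 1 without J1 regular and 3 without J1 2i.

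Within J1 the fitted change of MERVL-int with DAXX loss was 0.082 (edgeR, adjusted p = 0.969), beside 0% of families called, and it changed sign under all 3 other scalings. The ratios were 0.699 in regular medium and 2.04 in 2i. No MERVL-int element was called in J1 by edgeR, DESeq2 or limma, with 0 at an unadjusted p under 0.05, where edgeR called 7.83% of all elements. The difference between the DAXX effects in TKO and in J1 was −1.66 for MERVL-int, −1.60 for MERVL_2A-int and −1.65 for ERVL-B4-int, with adjusted p of 0.229, 0.229 and 0.181 and 0% of families called. Most families shared that direction, with a median of −1.20 over the 44 families, 41 below 0 and 19 at an unadjusted p under 0.05. For MERVL-int the difference was −0.39 with TMM, −0.50 with size factors and −0.071 with LINE reads, with adjusted p of 0.923, 0.809 and 0.982. Over all alternatives it reached −0.010 for MERVL_2A-int and −0.10 for ERVL-B4-int. The edgeR test of this difference called 2 of 575 MERVL-int elements, 0.348%, beside 0.503% of all. The median was −1.73 over MERVL-int elements and −1.41 over all. At an unadjusted p under 0.05 there were 229 of 575 MERVL-int elements and 5420 of all 11332. Without TKO DAXX-knockout 2i the difference for MERVL-int was −3.44 with an adjusted p of 0.00180, so 1 library decides that call.

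The comparison of TKO with J1 asks what the absence of the methyltransferases changes. With DAXX intact, MERVL-int was at 1.57 of the J1 level in regular medium and at 3.02 in 2i. With DAXX knocked out it was at 0.255 and 0.956. The log2 ratios averaged 0.05 ± 1.51 (SD of 4 pairs), above 0 in 2 of 4. The fitted changes were 0.15 for MERVL-int, 0.16 for MERVL_2A-int and 0.12 for ERVL-B4-int, all with adjusted p = 0.970 by edgeR, where 11.4% of families were called. These small changes turned negative with TMM and with size factors, settings that moved the median over all elements from 0.17 to 0.030 and −0.0032 and the split of all called elements from 66 higher and 3 lower to 60 and 267, and 63 and 296. None of the 575 MERVL-int elements was called in edgeR, DESeq2 or limma, with 0 at an unadjusted p under 0.05 in edgeR, beside 0.609% of all elements. The median element changed by log2 0.65 and 1.71 with DAXX intact, in regular medium and 2i, and by −2.05 and −0.10 with DAXX knocked out. Over all tested elements those medians were 0.97, 0.73, 0.12 and −1.16.

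**Figure D3:**
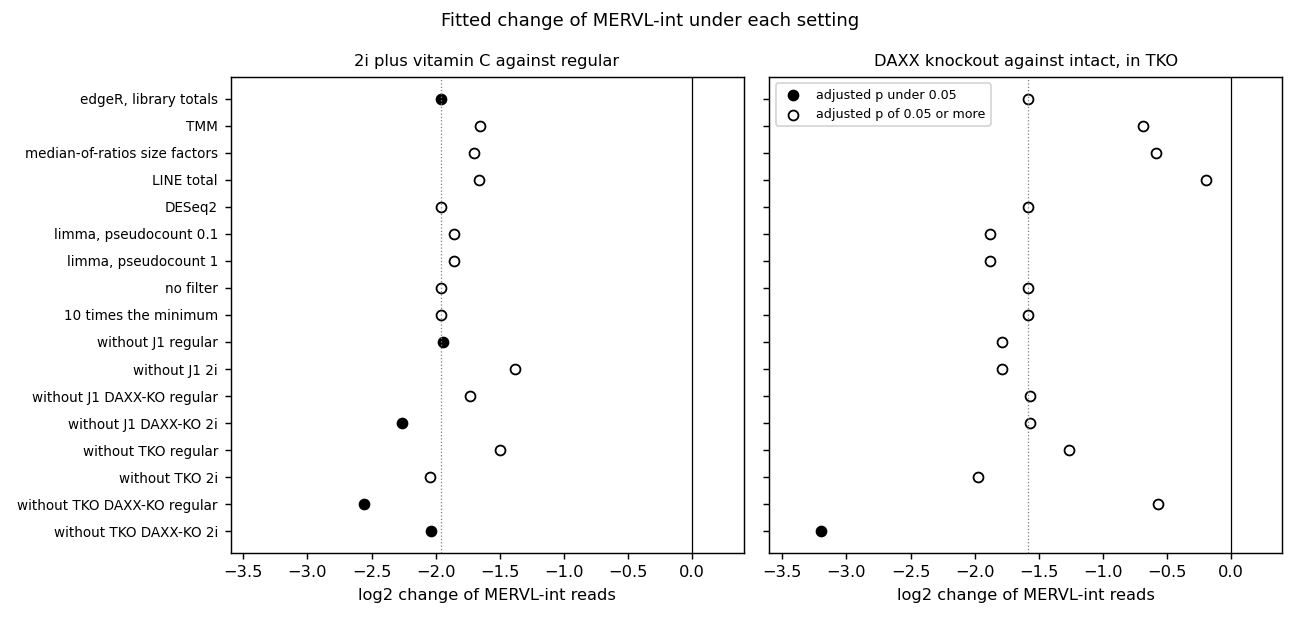
Fitted log2 change of MERVL-int reads for 2i against regular medium (left) and for DAXX knockout within TKO (right), under edgeR with library totals (dotted line) and 16 other settings; filled circles have an adjusted p under 0.05. All values are below 0, and the right panel spans −3.20 to −0.20.

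The 582 MERVL-int elements are near full length and lie on 21 chromosomes, 36 of them on X and 2 on Y. They measured 5005 to 5421 bp with a median of 5326 bp, and the table lists no element under 5001 bp, so shorter fragments of the family were not counted. Their RPKM were very even. In J1 regular the median was 3.11, the third quartile was 1.17 times the first, and 83.3% of elements lay within 25% of the median. The medians over the 4 lines were 3.11, 2.17, 4.89 and 0.50 in regular medium, and 0.26, 0.59, 0.87 and 0.54 in 2i. The quartile ratio was 1.16 to 1.19 in the 3 libraries with high MERVL-int and 1.26 to 1.41 in the other 5. For the mean RPKM over libraries it was 1.17, the lowest of 9 families with at least 20 elements and a median of at least 0.1 RPKM. It was 1.84 for RLTR4_MM-int, 2.10 for IAPEz-int, 2.57 for L1Md_A and 3.55 for L1Md_T. How reads that match several copies were assigned was not given in the sources used here. Values of single copies may therefore be built from shared reads, as may those of MERVL_2A-int and ERVL-B4-int, and the counts of called elements are not counts of independent events.

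**Figure D4:**
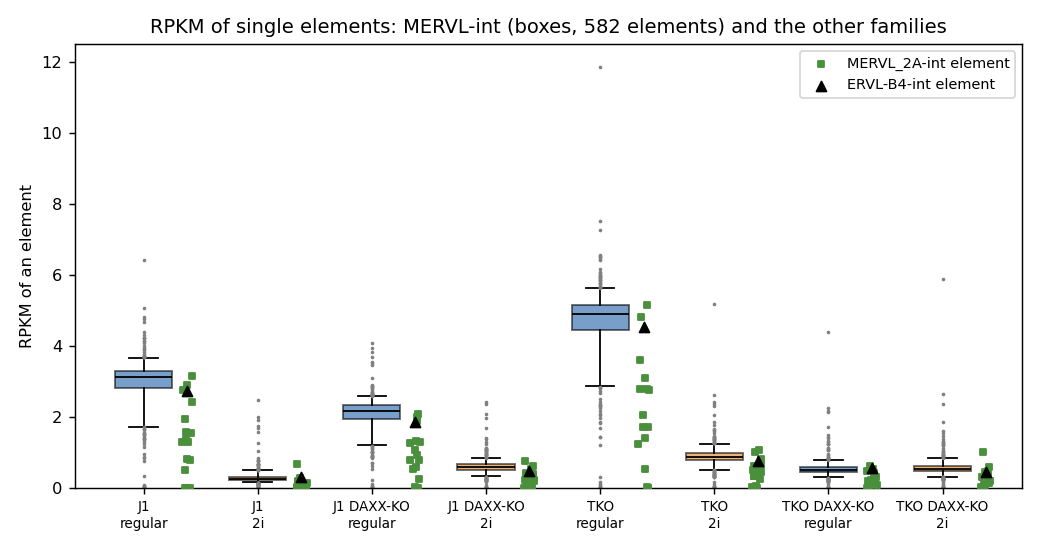
RPKM of single elements by library; boxes span the quartiles of the 582 MERVL-int elements (blue regular medium, orange 2i plus vitamin C) with the median as a line, whiskers run from the 5th to the 95th percentile and grey points lie beyond, beside 16 MERVL_2A-int elements (green) and the ERVL-B4-int element (triangle). The MERVL-int median is 4.89 in TKO regular and 0.26 in J1 2i, and 1 copy stands at 11.8 in TKO regular.

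A few copies stood above this even level. The copy of highest mean RPKM lies on chromosome 13 at 65778860 to 65784175 in mm9. It had 6.42, 3.52, 11.8 and 4.38 RPKM in regular medium, and 1.99, 2.41, 5.17 and 5.88 in 2i. It was the only copy at 1.5 times the family median or more in all 8 libraries, from 1.62 times in J1 DAXX-knockout regular to 10.9 times in TKO DAXX-knockout 2i. Its fitted change with 2i was −0.76 (edgeR, adjusted p = 0.977), beside the family's element median of −2.04.

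The other 4 of the 5 highest copies were also less reduced in 2i. The copy on chromosome 13 at 49789657 to 49794944 had 4.76, 3.81, 6.45 and 2.24 RPKM in regular medium, and 2.47, 2.35, 2.60 and 2.63 in 2i. The copy on chromosome 2 at 152089589 to 152094917 had 4.67, 3.93, 6.54 and 2.14 in regular medium and 1.90, 2.07, 2.42 and 2.37 in 2i. In the 4 libraries grown in 2i these 2 copies stayed within 2.35 to 2.63 and 1.90 to 2.42, where the family median went from 0.26 to 0.87.

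The copy on chromosome 8 at 127370545 to 127375871 had 4.31, 3.69, 6.49 and 1.44 RPKM in regular medium and 1.68, 1.96, 1.65 and 1.26 in 2i. The copy on chromosome 3 at 31550528 to 31555895 had 4.13, 2.89, 6.0 and 1.22 in regular medium and 1.75, 1.40, 2.37 and 1.21 in 2i. The fitted changes with 2i of these 4 copies were −0.71, −0.92, −1.18 and −0.97 in the order given, with adjusted p of 0.977, 0.711, 0.373 and 0.644 in edgeR, so none was called. They were chosen for their high mean, which a small fall in 2i helps to raise.

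**Figure D5:**
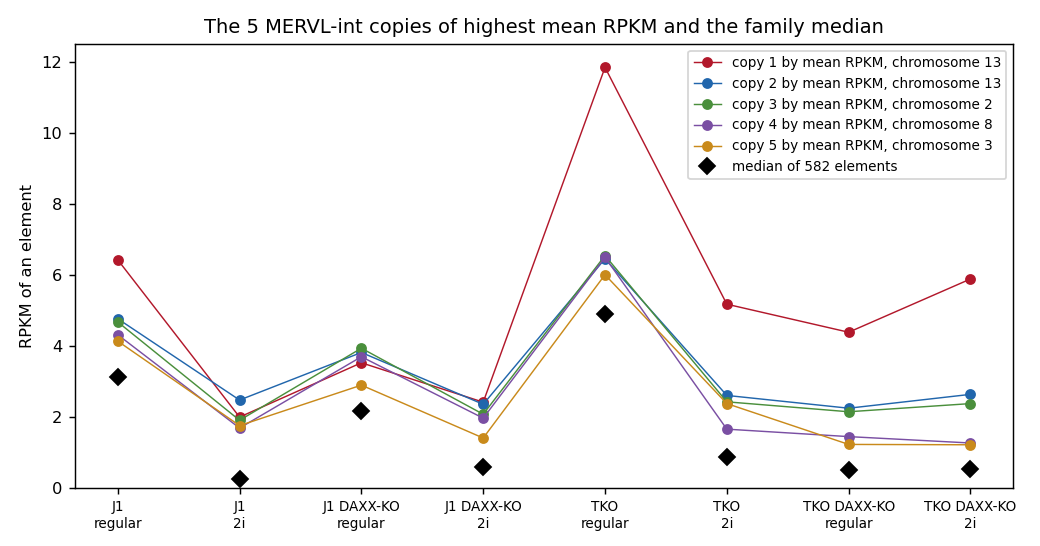
RPKM in each library of the 5 MERVL-int copies of highest mean RPKM (lines) and of the median of 582 elements (diamonds). The first copy reaches 11.8 in TKO regular where the median is 4.89, and it is at 5.88 in TKO DAXX-knockout 2i where the median is 0.54.

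Most reads nonetheless came from the bulk of copies. Over the 4 lines, the 10 copies of highest mean RPKM held 2.67%, 2.80%, 2.63% and 5.63% of MERVL-int reads in regular medium, and 7.77%, 4.57%, 4.46% and 6.02% in 2i. An even spread over the family would give 1.72%, and the Wilson half-width was at most 0.213 percentage points. The share averaged 3.43% ± 1.47 (SD, n = 4 libraries) in regular medium and 5.71% ± 1.55 in 2i, and the groups overlapped through TKO DAXX-knockout regular. A two-sided exact permutation test of the 2.27-point difference gave p = 0.0857, where the smallest p this test allows is 0.0286. The test set 4 libraries against 4 and ignored that the media are paired within a line. Within each line the share was higher in 2i, least so in TKO DAXX-knockout, and no paired test was run. The 10 copies were also ranked on the mean of these same libraries. The top copies held a larger share in the libraries with less MERVL-int, including TKO DAXX-knockout regular. Of the 20 highest copies in regular medium, 8, 14, 12 and 17 were also among the 20 highest in 2i in the 4 lines. The rank correlation over 582 copies between the media of a line was 0.57, 0.72, 0.76 and 0.71, as a description of libraries that share any unevenness of mapping.

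At the other end, 14 copies were at or below 0.5 times the family median in all 8 libraries. Of these, 7 had a mean under 0.1 RPKM and were not tested, and 1, on chromosome 9 at 25761076 to 25766210, had 0 reads in every library. Of the 7 nearly silent copies, 3 lie on X and 1 on Y. The copy on chromosome 4 at 112596470 to 112601846 was the highest of the 14, with 1.39 RPKM in J1 regular, 2.29 in TKO regular and 0.07 in J1 2i. By chromosome, the median of the mean RPKM was 1.55 to 1.74 on the autosomes, 1.57 on X and 0.40 for the 2 copies on Y.

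The MERVL-int copies with the largest called falls and the same sign in 4 of 4 pairs were close to the family in level. The copy on chromosome 7 at 69765767 to 69771054 had 3.06, 2.21, 4.96 and 0.49 RPKM in regular medium, and 0.22, 0.41, 0.87 and 0.42 in 2i. Its groups overlapped through TKO DAXX-knockout regular alone, which was below TKO 2i. Its fitted change was −2.35 (edgeR, adjusted p = 0.0254). The copy on chromosome 13 at 18731726 to 18737024 had 3.09, 2.27, 5.01 and 0.48 in regular medium and 0.17, 0.48, 0.82 and 0.46 in 2i, with a fitted change of −2.34 and an adjusted p of 0.0273. No copy was called higher in 2i in the fit over the 4 lines, although 388 of 582 were higher in 2i in TKO DAXX-knockout. None qualified for DAXX or for the methyltransferases.

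MERVL_2A-int elements were less even. Of 16, 13 were tested and 3 were at a mean of 0 to 0.005 RPKM, on chromosomes 6, 8 and X. The 13 had a median of 1.55 RPKM in J1 regular, with a range of 0.50 to 3.15, and of 0.13 in J1 2i, with a range of 0.03 to 0.67. The highest by mean, on chromosome 10 at 30291016 to 30296403, had 2.88, 1.98, 5.15 and 0.48 RPKM in regular medium and 0.67, 0.74, 1.07 and 1.00 in 2i. Its fitted change with 2i was −1.39 (edgeR, adjusted p = 0.390).

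The next MERVL_2A-int element, on chromosome 13 at 18094719 to 18099985, had 3.15, 2.07, 4.82 and 0.54 RPKM in regular medium and 0.27, 0.60, 1.01 and 0.59 in 2i, with an adjusted p of 0.0540. The third, on chromosome 12 at 114945673 to 114950990, had 2.75, 1.88, 3.60 and 0.60 in regular medium and 0.20, 0.54, 0.80 and 0.48 in 2i. Its fitted change was −2.00 (edgeR, adjusted p = 0.0361). The first 2 were thus the 2 of 13 not called. ERVL-B4-int had an RPKM of 0.796 to 1.19 times the MERVL-int median in each library.

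Few members were part of an assembled transcript of their own. Between 20133 and 23892 loci were assembled per library by the authors, and 85 to 108 of the 599 members, 14.2% to 18.0%, were overlapped by a locus of any length. A locus that stayed within 600 bp of the element's ends was found for 5 members in each regular library and 1 in each 2i library of the first 3 lines, and for 3 in each TKO DAXX-knockout library. The high copy on chromosome 13 at 65778860 had such a locus in J1 DAXX-knockout 2i and in all 4 TKO and TKO DAXX-knockout libraries. These loci had 1.02 FPKM in J1 DAXX-knockout 2i and up to 4.69 FPKM in TKO regular.

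The families most like MERVL-int over the 8 libraries were the other ERVL members. Pearson's r of log2(RPM + 0.1) was 0.999 with MERVL_2A-int and 0.992 with ERVL-B4-int. Outside the group the closest were IAPEY3-int at 0.81, the satellite GSAT_MM at 0.76, and the LINE families L1_Mus4 at 0.71, Lx4A at 0.67 and Lx2 at 0.63. IAPEY3-int had 108, 200, 136 and 75.7 RPM in regular medium, and 20.5, 21, 45.3 and 51.5 in 2i. It was also called lower in 2i, with a fitted log2 change of −2.02 (edgeR, adjusted p = 0.0123). All these values share the libraries and their depth, and they describe 8 points only.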

How the data were processed

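RNA was sequenced from 8 libraries, 1 for each of 8 groups. Per the submitters' processing notes, which give neither role nor order, the tools were Cufflinks, Cuffdiff, TopHat and Bowtie2 2.2.4 and the build was mm9. The deposited repeat table gives a read count and an RPKM by the authors for each element and library, per the file headers. The deposited FPKM of assembled loci carry no gene names. The sources used here do not give the counter or its treatment of multiply mapping reads. Positions are printed as deposited, and element lengths equal end minus start. No mm9 genome or annotation was used here, so no sequence or gene context is given.

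Library totals were recovered from counts and RPKM, and 100% of recomputed RPKM lay within 0.011 of the deposited ones. Read counts per family (mean of at least 1 RPM, 44 of 65 families) and per element (mean RPKM of at least 0.1) were tested with edgeR 4.0.16 (R 4.3.3), quasi-likelihood, two-sided, each factor with the others as covariates, Benjamini-Hochberg adjusted at 0.05. Interactions were added 1 at a time. Alternatives were TMM, size factors, LINE reads as the scale, DESeq2 1.42.0, limma 3.58.1 on log2 values with a pseudocount of 0.1 or 1, no minimum, a 10 times higher minimum, each library left out, and the 4 pairs of a factor as a block (chosen after seeing the data). The scripts were tested on simulated data, and Python 3.11.15 read the files.

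The members and lists were chosen with earlier results of these data known. Named were the 3 families, the 5 MERVL-int copies of highest mean RPKM, up to 2 copies each way per factor with the largest called change and the same sign in 4 of 4 pairs, the 3 highest MERVL_2A-int elements and the 5 most correlated other families. Copies at least 1.5 times or at most 0.5 times the family median in all libraries were described without a test, and those named individually among them were chosen after their values were seen.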

Additional observations from a re-analysis of the deposited data

Results flagged for a closer look

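The TKO to J1 ratio of each ERVL family had opposite signs with DAXX intact and with DAXX knocked out, in both media. For MERVL-int the log2 ratio was 0.65 in regular medium and 1.59 in 2i with DAXX intact, and −1.97 and −0.065 with DAXX knocked out. For MERVL_2A-int it was 0.59 and 1.67 with DAXX intact and −1.92 and −0.025 with DAXX knocked out. For ERVL-B4-int it was 0.73 and 1.29, and −1.75 and −0.13. The 2i ratios with DAXX knocked out are close to 0. The difference was tested as the DAXX by methyltransferase interaction, which did not pass the threshold in edgeR, with adjusted p of 0.229, 0.229 and 0.181. The pattern was not particular to the ERVL group. That interaction was below 0 in 41 of 44 families, with a median of −1.20. L1Md_T also had opposite signs in both media, at 1.14 and 0.52 with DAXX intact and −0.053 and −1.37 with DAXX knocked out. IAPEz-int and MMERVK10C-int had them in 2i only. The 3 families rise and fall together across the libraries and may share reads, so they are not separate observations.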

How the results depend on the processing

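The labels carry no replicate numbers, so no block by number was fitted. The 4 pairs of libraries that differ in 1 factor alone were fitted as a block instead, an alternative chosen after seeing the data, with 3 residual degrees of freedom. Under it MERVL-int and MERVL_2A-int lost their medium calls, at −1.90 and −1.82, and ERVL-B4-int kept its call. None of the 3 families was called for DAXX or the methyltransferases, with or without the block. MERVL-int elements called numbered 566 for the medium, beside 7.24% of all elements with these 566 included. They numbered 0 for DAXX, beside 0.00882% of all, and for the methyltransferases, beside 0.512%. The fall of the 3 families in 2i kept its direction in every setting run, and the adjusted p was under 0.05 in 4 of 16 other alternatives for MERVL-int, 5 of 16 for MERVL_2A-int and 10 of 15 for ERVL-B4-int, which the 10 times higher minimum removes. Of the alternatives that lost the MERVL-int call, TMM gave −1.66, size factors −1.70, LINE reads −1.66, DESeq2 −1.96 (adjusted p 0.241), limma −1.86 with either pseudocount, no minimum −1.96 and the higher minimum −1.96. For MERVL_2A-int these were −1.58, −1.62 and −1.58 for the scalings, −1.79 and −1.75 for limma, and −1.88 for either minimum. For ERVL-B4-int the scalings gave −1.79, −1.83 and −1.79. Leaving out 1 library gave −2.56 to −1.39, −2.48 to −1.28 and −2.63 to −1.63 for the 3 families. The cause of these losses was not tested. Without 1 library, its partner is assumed to vary like the other libraries.

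The methyltransferase change reversed to −0.27 with TMM and −0.063 with size factors for MERVL-int, to −0.26 and −0.047 for MERVL_2A-int, and to −0.32 and −0.11 for ERVL-B4-int. Leaving out 1 library gave −0.44 to 0.76, −0.43 to 0.78 and −0.38 to 0.67. The DAXX change kept its sign, at −1.38 to −0.058, −1.41 to −0.079 and −1.43 to −0.28 without 1 library. For MERVL-int, the DAXX change in J1 reversed to −0.30 with TMM, −0.090 with size factors and −0.13 with LINE reads, and spanned −0.71 to 1.25 without 1 library. In TKO it spanned −3.20 to −0.57 without 1 library, the DAXX by methyltransferase term −3.44 to −0.81, the medium by DAXX term 0.67 to 3.37 and the medium by methyltransferase term −0.17 to 2.92.

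MERVL-int elements called for the medium numbered 0 with TMM, 1 with size factors and 0 with LINE reads, and 0 to 570 without 1 library. For DAXX in TKO they numbered 0 under each of those scalings, 71 with no minimum and 0 with the higher one, and 0 to 566 without 1 library. For DAXX they numbered 0 to 43, and for the methyltransferases and the medium by DAXX term 0 without any 1 library. The share of the 10 highest copies differed by 1.58 to 3.00 points without 1 library, with exact permutation p of 0.0571 to 0.171. Depth limits the single copies most in J1 2i, where the median MERVL-int element had 92.5 reads.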
